A study of Mus musculus with 1 sample.

Results

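Mitotic cells of mouse gastric organoids, chosen by their counts of 4 proliferation genes in 1 droplet library, are described here: 116 of 1892 kept cells met it, or 6.13% (exact Clopper-Pearson 95% interval 5.09% to 7.31%). A barcode was kept where it had 500 or more genes and where mitochondrially encoded genes took 20% or less of its UMIs (unique molecular identifiers, which count captured RNA molecules). For each of 8 small gene sets, the UMIs of the set per 10000 gene UMIs of a cell were transformed as ln(1 + x) and set to z over the kept cells, that is, to the number of standard deviations from the mean cell. A cell was a member where the set of Top2a, Mki67, Aspm and Hmmr had its highest z and that z was at least 1.5. The other sets were the replication-licensing genes Mcm3, Mcm5, Mcm6 and Pcna, and 6 sets with no part in the cycle: Scgb3a1 with Cyp2f2, Ndrg1 with Ly6m, Mt1 with Mt2, Cxcl2 with Cxcl5, Psca with Prss22, and Cyba with Gsta1 and Gsta2.

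The library came from organoids, which are epithelial cultures grown in gel, and the labels give the genotype as wild type, the treatment as none and the cell type as epithelial. The cultures were taken on day 7 after seeding, and 0.05% trypsin-EDTA for 30 min at 37 °C released the single cells. KP and EKP organoids are also named in the series text and were not analysed here. With 1 library there was no replicate, no difference was tested, and every interval below is a 95% interval that covers counting error only.

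The cell division cycle copies the genome in S phase and parts the copies in mitosis, after a gap called G2. Entry into mitosis is driven by CDK1 bound to B-type cyclins, the spindle then attaches to chromosomes at kinetochores, and the anaphase-promoting complex (APC/C) ends mitosis by marking securin and cyclin B for destruction. Transcripts of many of these proteins build up from S phase into G2 and mitosis, so an RNA score alone does not separate G2 from mitosis. In the stomach, dividing cells lie mainly in the isthmus of the gland, between the surface pit and the gland base.

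Because the rule used the 4 genes, and because genes of 1 transcriptional programme move with them, the values that compare mitotic cells with other cells are descriptions of the chosen cells. The 4 genes together had 1 to 53 UMIs per mitotic cell, with a median of 10.5. In the 932 cells that reached a z of 1.5 on none of the 8 sets, called baseline cells here, the same sum ran from 0 to 5 with a median of 0. The score of the mitotic cells had a lowest value of 1.51, a median of 2.92 and a highest value of 5.30, and it formed a range with no gap at the threshold. The 5 cells just inside had z of 1.51, 1.53, 1.55, 1.57 and 1.60, and the 5 just outside among cells led by the mitotic set had 1.4997, 1.49, 1.48, 1.38 and 1.37. Of the members, 19 had a z below 2, and 18 further cells led by the mitotic set had a z from 1.0 to 1.5. All 4 genes were detected in 40 members. Another 13 members had 3 or fewer UMIs of the 4 genes, and 3 of those had 1 UMI, so membership at the low end rested on very few molecules. When every cell was thinned to 3000 UMIs and the rule applied again, 81 of the 112 members deep enough were members again. The 31 that were lost had z from 1.51 to 3.87 in the full data, and 69 cells were gained, with a median z of 0.923 in the full data.

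**Figure D1:**
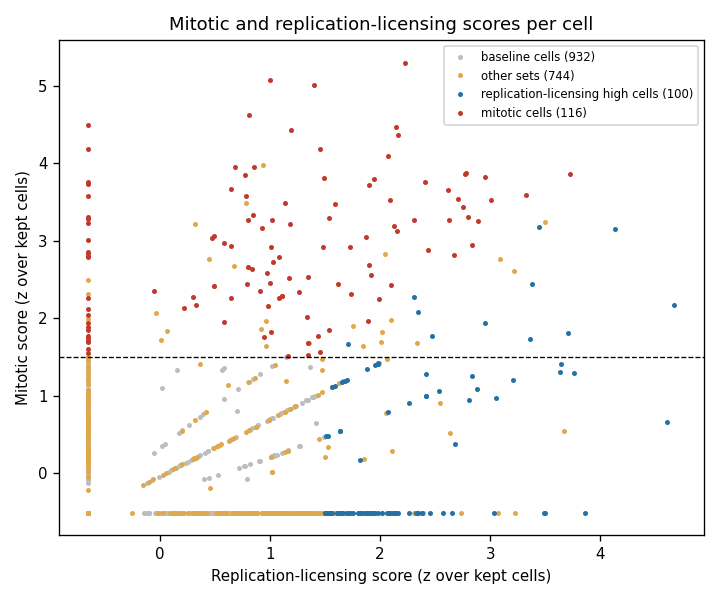
Mitotic score (y axis, z over 1892 kept cells) against replication-licensing score (x axis, z) for each cell, with 116 mitotic cells, 100 replication-licensing high cells, 932 baseline cells and 744 cells led by another set, and a dashed line at a z of 1.5. Mitotic cells run from 1.51 to 5.30 with no gap at the line, and the cells stacked at the left and lower edges have no UMI of the set on that axis.

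Outside the chosen cells, 438 of the other kept cells (24.7%) had at least 1 UMI of the 4 genes, and the members held 61.8% of all UMIs of those genes. In all, 156 cells had a mitotic z of at least 1.5, and 40 of them were not members because another set was higher: Cyba with Gsta1 and Gsta2 in 16 cells, replication licensing in 11, Ndrg1 with Ly6m in 4, the chemokines in 4, Scgb3a1 with Cyp2f2 in 3, and the metallothionein and Psca sets in 1 each. Those 40 cells, also picked by their mitotic z, had 1181 CPM of the mitotic kinases and cyclins described below, so the members are not every cycling cell of the library.

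More RNA molecules were captured from mitotic cells than from other cells. Gene UMIs per mitotic cell ran from 1254 to 39049 with a median of 10983, against a median of 8290 in the other 1776 kept cells, a ratio of medians of 1.32. Of the 116 members, 80 (69.0%) lay above the other cells' median, and the ranges overlapped widely. Replication-licensing high cells, the 100 cells led by that set at a z of at least 1.5, had a median of 7152.5 UMIs, and baseline cells had 8408.5. Detected genes per cell had a median of 2851 in mitotic cells and 2185 in the others. After each cell was thinned to 3000 UMIs, which left out 4 members, the medians were 1232 and 1116 genes, a ratio of 1.10. The median UMI count of the multiplexing tags, oligonucleotides that bind the cell membrane, was 2423 in mitotic cells and 2258 in the others. The median mitochondrial share was 3.57% against 4.10%, and the share of ribosomal protein genes was 30.3% against 32.9%. Scrublet, which scores droplets for holding 2 cells, called 0 of 116 members, which allows a share of up to 2.59% (3 cells), and 12 of all 1892 kept cells (0.634%), with median scores of 0.0317 in members and 0.0303 in the others. Whether RNA content per cell, cell size or undetected doublets had a part in the higher UMI count was not tested.

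**Figure D2:**
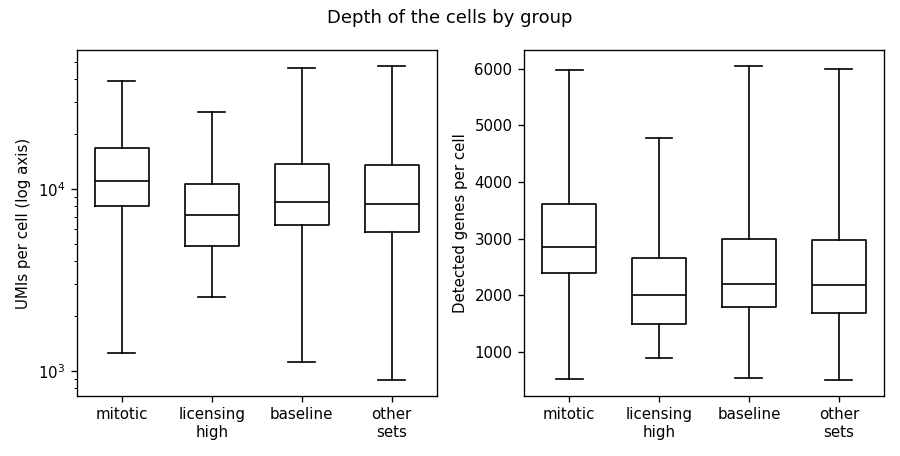
Gene UMIs per cell (left, log axis) and detected genes per cell (right) in 116 mitotic, 100 replication-licensing high, 932 baseline and 744 other cells, with boxes for the quartiles, lines for the medians and whiskers to the lowest and highest cell. The mitotic median of 10983 UMIs lies above the licensing-high median of 7152.5 and the baseline median of 8408.5, and all ranges overlap.

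The label was read against its 7 markers. All 7 had a UMI in a larger share of mitotic cells than of baseline cells. Levels below are CPM, for which the UMIs of a gene in a group of cells were added up and divided by that group's gene UMIs, times 1000000, and ratios divide the CPM of mitotic cells by that of all other kept cells unless another group is named. Top2a (ENSMUSG00000020914, chromosome 11, 98992943 to 99024189, minus strand, GRCm38 by GENCODE M21), the topoisomerase that untangles copied DNA, had 562 CPM (525 to 601) against 28.5, and a UMI in 94.0% of mitotic cells and 16.8% of baseline cells. Mki67, which coats mitotic chromosomes, had 217 CPM against 11.8. Hmmr and Aspm, which act at spindle microtubules and poles, had 128 and 53 CPM against 5.37 and 2.47. These 4 were used by the rule. Of the 3 markers the rule did not name, Knl1, a kinetochore scaffold, had 55.6 CPM against 2.69, Aurka, a spindle pole kinase, had 65.6 against 2.96, and Dlgap5, which stabilises spindle microtubules, had 49.7 against 2.96. Each of these 3 genes had a UMI in 39.7% to 45.7% of mitotic cells and 1.18% to 2.25% of baseline cells. At 3000 UMIs per cell the shares were 15.2% to 20.5% and 0.330% to 1.10%, so the difference was also there at equal depth.

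Among all genes with at least 50 UMIs over the kept cells, 569 of 10132 (5.62%) had a ratio of at least 2 in mitotic cells and 245 (2.42%) had a ratio of at most 0.5. The first count depends on the sparse genes: it was 240 of 6891 genes (3.48%) with cells thinned to 3000 UMIs, where the rule took other cells in part, and 175 of 6682 (2.62%) with a minimum of 200 UMIs. The median ratio of all 10132 genes was 1.09. The gene lists below contain genes of known role, and their counts are read beside those shares. As the comparison is the one that chose the cells, the counts describe the mitotic programme of these cells and are no evidence for it.

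Mitotic kinases, cyclins and their regulators were high in mitotic cells as a group. Of 19 listed genes with at least 50 UMIs, 18 had a ratio of at least 2 (5.62% of all genes did), and the median was 9.14. Their summed level was 1375 CPM (1316 to 1435) against 192 CPM in the other cells, a ratio of 7.17 (6.79 to 7.57), 499 CPM in replication-licensing high cells and 148 CPM in baseline cells. Per cell the summed level had a lowest value of 0, a median of 13.2 and a highest value of 44.1 UMIs per 10000, against a median of 1.15 in the other cells. In 97.4% of mitotic cells it lay above that median. Cdk1, the kinase that drives mitotic entry, had 0 to 9 UMIs per mitotic cell with a median of 1, and 150 CPM against 16.2, a ratio of 9.22 (7.73 to 11.0). Ccnb1 and Ccnb2 encode its B-type cyclin partners. Ccnb1 had 89.4 CPM against 6.23, a ratio of 14.3 (11.1 to 18.5), and Ccnb2 had 127 CPM against 8.01, a ratio of 15.8 (12.7 to 19.7). Ccna2, the A-type cyclin of S phase and G2, had a ratio of 8.75 (6.44 to 11.9). The kinases Plk1, which acts on centrosomes and kinetochores, and Aurkb, the enzyme of the chromosomal passenger complex, had ratios of 14.5 and 15.8. Wee1, which restrains CDK1 by phosphorylation, had a ratio of 3.92 (2.94 to 5.16). The lowest of the list was Pkmyt1, a second kinase that restrains CDK1, with 3.97 CPM against 2.79 from 6 UMIs in mitotic cells, a ratio of 1.42 (0.499 to 3.31).

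Kinetochore and spindle checkpoint genes gave a like picture. Of 30 listed genes with at least 50 UMIs, 28 had a ratio of at least 2 (5.62% of all genes did). The median ratio was 8.67, and 7 more listed genes had too few UMIs. The summed level was 2019 CPM against 286 CPM. Cenpf, a large kinetochore and spindle protein, had 0 to 16 UMIs per mitotic cell with a median of 3, and 290 CPM (264 to 319) against 12.5, a ratio of 23.3 (19.8 to 27.4). Cenpa, the histone variant that marks the centromere, had a median of 3 UMIs per mitotic cell and 299 CPM against 31.4, a ratio of 9.54 (8.42 to 10.8). All 4 genes of the chromosomal passenger complex, which corrects wrong attachments, had ratios between 6.21 (Incenp) and 15.8 (Aurkb). Of the Ndc80 complex, which holds microtubule ends, 3 of 4 genes had at least 50 UMIs, with ratios of 8.28 to 14.1. The checkpoint genes were less even. Bub1b and Bub1, kinase-related proteins of the checkpoint, had ratios of 15.9 and 13.8, Mad2l1, the inhibitor of CDC20, had 6.36, and Bub3, which brings BUB proteins to kinetochores, had 2.61. Mad1l1, the partner of Mad2l1, had 1.94 (1.18 to 3.05), and Zw10, which helps bring dynein to kinetochores, had 1.68 (0.837 to 3.09).

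Apart from the lists of the markers and of the rule's own genes, spindle motors and microtubule-binding proteins had the highest median ratio of the lists on mitosis, 12.8. Of 25 listed genes with at least 50 UMIs, 24 had a ratio of at least 2 (5.62% of all genes did). The summed level was 1478 CPM against 155 CPM, a ratio of 9.56 (9.04 to 10.1). All 9 kinesins with enough UMIs had ratios between 6.91 (Kif23, which works at the midzone) and 18.7 (Kif11, which pushes the poles apart). Tpx2, which activates Aurora A on the spindle, had 0 to 25 UMIs per mitotic cell with a median of 2, and 193 CPM against 10.1, a ratio of 19.1 (15.9 to 23.1). Prc1, which bundles midzone microtubules, had 230 CPM against 17.4, a ratio of 13.2 (11.3 to 15.5). The exception was Numa1, which organises spindle poles and is also a nuclear protein of interphase, with 34.4 CPM against 20.7, a ratio of 1.66 (1.22 to 2.22).

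Chromosome structure genes split by complex. All 8 condensin subunits, which compact mitotic chromosomes, had ratios of at least 2, from 2.31 (Ncaph2) to 10.4 (Ncapg), with a summed level of 444 CPM against 81.7. Of the 5 cohesin subunits, which hold sister chromatids together and also act in interphase, 2 had a ratio of at least 2, the range was 0.914 (Stag2) to 2.58 (Rad21), and the summed level was 487 CPM against 296. The summed ratio was 5.43 (4.95 to 5.95) for condensin and 1.64 (1.52 to 1.77) for cohesin.

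Anaphase and cytokinesis genes split further, between the APC/C itself and some of the proteins that act with it. None of the 14 APC/C subunits had a ratio of at least 2 (5.62% of all genes did). Their ratios ran from 0.868 (Anapc16) to 1.97 (Anapc15), and their summed level was 727 CPM against 573, a ratio of 1.27 (1.19 to 1.35). Of the genes around the complex, Ube2c, Ube2s and Cdc20 were higher, while Fzr1 lay within the range of the subunits. Ube2c, the E2 enzyme that starts ubiquitin chains for the APC/C, had 0 to 25 UMIs per mitotic cell with a median of 4, and 395 CPM against 56.5, a ratio of 6.99 (6.31 to 7.74). Ube2s, which lengthens those chains, had a ratio of 3.07 (2.77 to 3.40), and the coactivator Cdc20 had 8.33 (6.38 to 10.8). Fzr1, the coactivator of late mitosis and G1, had 34.4 CPM against 18.1, a ratio of 1.90 (1.39 to 2.55). All 4 cytokinesis genes had ratios above 10: Racgap1 10.4, Anln 10.5, Ect2 13.5 and Cit 14.2.

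Pttg1 stood out on this list. The gene (ENSMUSG00000020415, chromosome 11, 43420250 to 43426251, minus strand) is annotated as protein-coding and encodes securin, the inhibitor of separase and a classic APC/C substrate of mitosis. Its level was 56.3 CPM (45.0 to 69.6) in mitotic cells, 55.4 in the other cells, 61.5 in replication-licensing high cells and 53.7 in baseline cells. The ratio to other cells was 1.02 (0.805 to 1.27). It had 85 UMIs in mitotic cells and a UMI in 42.2% of them and in 38.6% of baseline cells, or 15.2% and 14.3% at 3000 UMIs per cell. The interval leaves room for a difference of up to 1.27-fold. Cdc20, Ube2c and the B-type cyclins, which act in the same step, had ratios of 6.99 to 15.8.

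**Figure D3:**
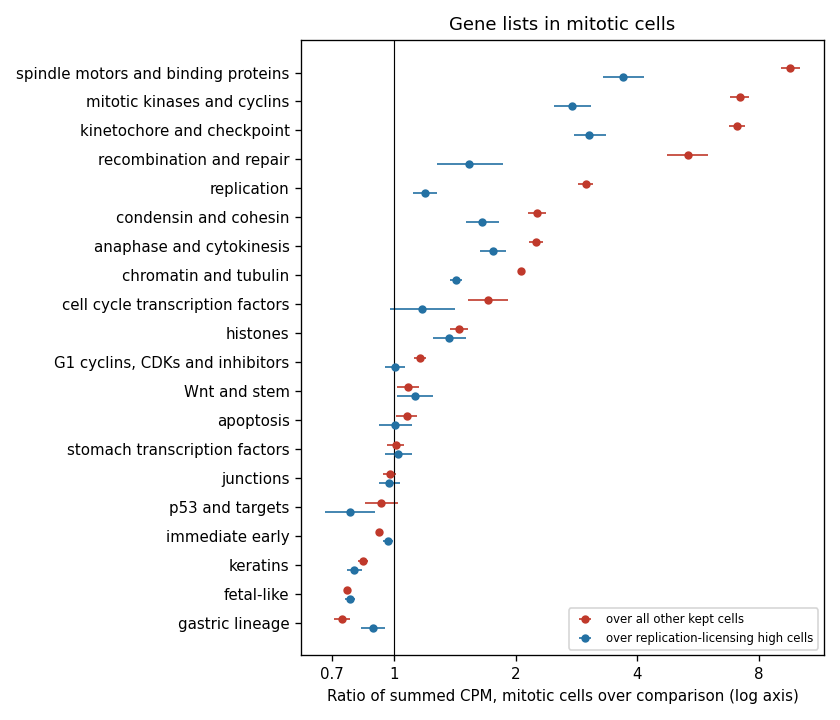
Ratio of summed CPM (x axis, log scale) of mitotic cells over all other kept cells (red) and over replication-licensing high cells (blue) for 20 gene lists (y axis), with bars for 95% counting intervals and a line at 1. Spindle genes reach 9.56 against other cells, replication genes reach 2.98 against other cells and 1.19 against licensing-high cells, and gastric lineage genes lie at 0.744.

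Regulators of cell cycle transcription were sparse. Of 16 listed genes, 11 had at least 50 UMIs and 4 of these had a ratio of at least 2 (5.62% of all genes did). The median was 1.47. Lin9 and Lin54, subunits of the MuvB complex that binds cell cycle promoters, had ratios of 4.79 (2.75 to 8.07) and 3.58 (2.20 to 5.65). Foxm1, an activator of G2 and mitotic genes that works with MuvB, had 18 UMIs in mitotic cells and 19 in all other cells, 11.9 CPM against 1.02, and fell under the minimum of 50 UMIs. Mybl2, the MYB protein of that complex, had 13 and 26 UMIs. At this depth neither factor was detected in more than 14.7% of mitotic cells.

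Promoters of the genes highest in mitotic cells were read because many mitotic genes are known to share 2 elements, the cell cycle genes homology region (CHR), which MuvB binds, and the CCAAT box, which the factor NF-Y binds. Windows run from 250 bases before to 50 bases after the start given by RefSeq for GRCm38.p6. The 6 shown are those with the highest ratios among the lists on kinases, kinetochores, spindle and anaphase with an entry in the table. They are printed 5′ to 3′ on the strand of the gene, and capitals mark a CHR (TTTGAA or TTCGAA) or a CCAAT box on either strand, so that TTCAAA and ATTGG are matches to the opposite strand. Positions below count the start as 0.
Cenpf: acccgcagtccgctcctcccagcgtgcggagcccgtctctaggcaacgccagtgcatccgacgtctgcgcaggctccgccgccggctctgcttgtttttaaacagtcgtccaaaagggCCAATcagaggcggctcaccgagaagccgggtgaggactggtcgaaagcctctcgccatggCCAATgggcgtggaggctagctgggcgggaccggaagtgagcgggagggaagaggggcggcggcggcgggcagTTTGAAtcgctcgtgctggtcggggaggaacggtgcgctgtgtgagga
Aurka: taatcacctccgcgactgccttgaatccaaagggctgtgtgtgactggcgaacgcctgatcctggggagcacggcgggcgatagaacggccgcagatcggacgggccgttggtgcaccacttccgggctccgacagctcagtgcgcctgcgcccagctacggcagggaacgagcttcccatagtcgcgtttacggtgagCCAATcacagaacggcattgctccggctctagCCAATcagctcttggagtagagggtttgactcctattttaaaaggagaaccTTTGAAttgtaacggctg
Knl1: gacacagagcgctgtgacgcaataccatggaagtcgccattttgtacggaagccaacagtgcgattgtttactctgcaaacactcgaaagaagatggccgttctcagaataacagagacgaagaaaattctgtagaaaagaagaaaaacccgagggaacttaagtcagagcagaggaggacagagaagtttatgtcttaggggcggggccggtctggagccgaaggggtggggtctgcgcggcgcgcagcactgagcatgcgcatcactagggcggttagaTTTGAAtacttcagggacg
Ckap2l: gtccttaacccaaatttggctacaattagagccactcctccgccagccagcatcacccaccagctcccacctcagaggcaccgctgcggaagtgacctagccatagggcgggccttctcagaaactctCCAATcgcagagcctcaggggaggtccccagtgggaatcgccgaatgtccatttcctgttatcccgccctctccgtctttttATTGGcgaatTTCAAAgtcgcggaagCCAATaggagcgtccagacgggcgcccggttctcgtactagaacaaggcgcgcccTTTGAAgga
Kif11: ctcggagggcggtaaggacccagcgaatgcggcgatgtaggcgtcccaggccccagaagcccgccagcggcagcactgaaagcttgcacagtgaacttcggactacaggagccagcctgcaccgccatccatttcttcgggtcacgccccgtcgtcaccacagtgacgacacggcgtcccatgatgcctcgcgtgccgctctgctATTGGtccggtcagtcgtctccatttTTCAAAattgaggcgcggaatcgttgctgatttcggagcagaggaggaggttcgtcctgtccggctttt
Nusap1: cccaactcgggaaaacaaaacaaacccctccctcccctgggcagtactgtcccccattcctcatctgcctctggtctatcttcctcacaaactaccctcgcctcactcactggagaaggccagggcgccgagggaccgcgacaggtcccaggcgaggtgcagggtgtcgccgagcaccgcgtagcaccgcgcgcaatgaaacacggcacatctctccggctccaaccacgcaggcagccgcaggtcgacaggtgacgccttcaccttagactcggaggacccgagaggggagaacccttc

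In Cenpf (chr1:189688037-189688336, minus strand) a CHR began 2 bases after the start and CCAAT boxes began 132 and 71 bases before it. Aurka (chr2:172370521-172370820, minus strand) had a CHR from position 32 and CCAAT boxes from -51 and -19. Ckap2l (chr2:129297163-129297462, minus strand), which encodes a spindle protein, had 2 CHR matches and 3 CCAAT boxes. Kif11 (chr19:37376132-37376431, plus strand) had 1 of each, both on the opposite strand, from -19 and -45. Knl1 (chr2:119046869-119047168, plus strand) had a CHR from position 31 and no CCAAT box in the window. Nusap1 (chr2:119618048-119618347, plus strand), which bundles spindle microtubules, had neither in the window, which says only that these letters are not in it.

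Across the 4 lists on kinases, kinetochores, spindle and anaphase, the share of windows with a CHR differed with the ratio of the gene. Of 77 listed genes with a ratio of at least 2, 65 had a window, and 51 of their 72 windows (70.8%) held a CHR. Of 20 listed genes with a ratio below 2, 14 of which encode APC/C subunits, 18 had a window, and 3 of 22 windows (13.6%) held one. The share over all 32851 windows was 19.2%. For the CCAAT box the shares were 70.8%, 31.8% and 37.4%, and for both elements together 52.8%, 0% (0 of 22) and 7.52%. Replication genes with a ratio of at least 2 had a CHR in 6 of 30 windows and an E2F site (TTTCCCGC or TTTGGCGC, either strand) in 16.7%, against 1.56% of all windows and 4.17% of the windows of the high mitotic genes. The 4 genes of the rule held both a CHR and a CCAAT box in 4 of 4 windows. A match of letters is a description of the window and not a measured site of binding, and windows of 1 gene can overlap.

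Replication genes were also higher in mitotic cells. Without Mcm3, Mcm5, Mcm6 and Pcna, which the rule used, 32 of 40 genes with at least 50 UMIs had a ratio of at least 2 (5.62% of all genes did), with a median of 3.29. The summed level was 1811 CPM against 607, a ratio of 2.98 (2.86 to 3.11). Per mitotic cell it ran from 1.98 to 67.7 UMIs per 10000 with a median of 16.2, against a median of 4.90 in other cells. The highest ratio was that of Pole, the catalytic subunit of the leading-strand polymerase, at 8.86 (4.95 to 15.6). Mcm7, a subunit of the replicative helicase, had 82.8 CPM against 19.7, and Tyms, which makes thymidylate, had 66.2 CPM against 17.5. Gmnn, which blocks a second round of licensing, had 141 CPM against 54.7. Recombination and repair genes of S phase and G2 followed: 8 of 10 genes with at least 50 UMIs had a ratio of at least 2 (5.62% of all genes did).

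Set against replication-licensing high cells, the difference in replication genes was small while the difference in mitotic genes was not. The summed replication level was 1811 CPM in mitotic cells and 1519 CPM in licensing-high cells, a ratio of 1.19 (1.12 to 1.27). For mitotic kinases and cyclins the same ratio was 2.76 (2.48 to 3.07), for kinetochore genes 3.04 (2.78 to 3.34) and for spindle genes 3.69 (3.29 to 4.15). Over 4718 genes with enough UMIs in these groups, 128 (2.71%) had a ratio of at least 2, 20 (0.424%) had a ratio of at most 0.5, and the median was 1.03. Aurka had 99 UMIs in mitotic cells and 1 UMI in licensing-high cells, 65.6 against 1.18 CPM, a ratio of 55.5 with a counting interval of 9.73 to 2212. Cenpf had 290 against 31.9 CPM and Ube2c 395 against 63.8 CPM. The S phase genes Uhrf1 and Rrm2 showed no such difference: Uhrf1, a reader of hemimethylated DNA, had 20.5 against 29.6 CPM, a ratio of 0.695 (0.397 to 1.23), and Rrm2, the small subunit of ribonucleotide reductase, had 18.5 against 18.9 CPM. Both groups were cut by the same scores, so these values describe the cut as well as the cells.

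**Figure D4:**
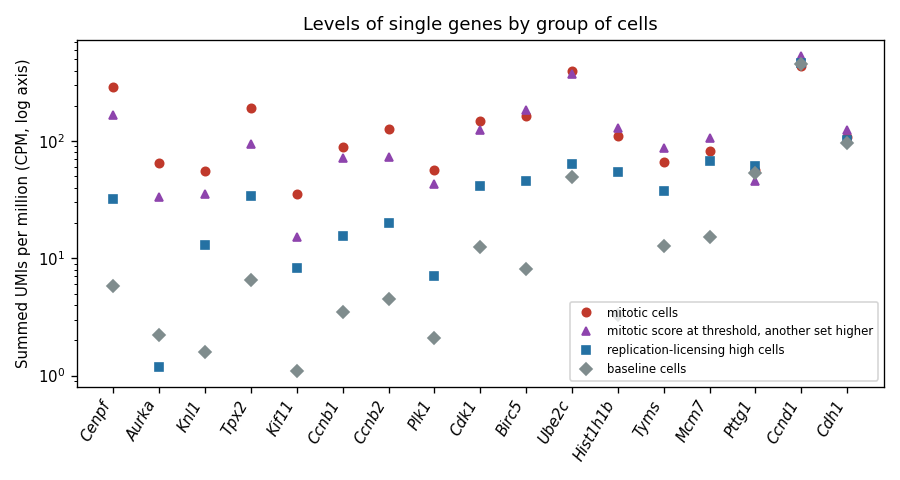
Summed CPM (y axis, log scale) of 17 genes (x axis) in 116 mitotic cells, 40 cells with a mitotic z at the threshold but another set higher, 100 replication-licensing high cells and 932 baseline cells, 1 point per group. Cenpf runs from 290 CPM in mitotic cells to 5.79 in baseline cells and Aurka is at 1.18 in licensing-high cells, while Pttg1 and Ccnd1 points nearly coincide.

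Histone genes showed opposite differences. Hist1h1b, Hist1h2ae and Hist1h2ap, replication-dependent histones, had 111, 179 and 325 CPM in mitotic cells against 9.03, 15 and 36.5, ratios of 12.3, 11.9 and 8.91. The linker histone Hist1h1c had 60.3 CPM against 149, a ratio of 0.405 (0.325 to 0.499), and the core histone Hist1h2bc had 189 CPM against 474, a ratio of 0.398 (0.352 to 0.448). Hist1h2bc had a UMI in 54.3% of mitotic cells and 90.7% of baseline cells, or 24.1% and 66.8% at 3000 UMIs per cell. In licensing-high cells the 2 genes lay in between, at 111 and 364 CPM, and in the 40 cells with another set higher they were at 58.1 and 163 CPM. Both are histones known to be made outside S phase too, as RNAs with a poly(A) tail. Histone genes are close copies of each other, and some lack the poly(A) tail that 3' libraries capture, so the share of reads given to each copy is uncertain. Of the 10 listed histone genes with at least 50 UMIs, 7 had a ratio of at least 2 and these 2 had a ratio of at most 0.5 (2.42% of all genes did).

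Chromatin proteins and tubulins followed in the same direction with smaller ratios. Of 26 listed genes, 15 had a ratio of at least 2 (5.62% of all genes did), and the summed level was 7736 CPM against 3750. Hmgb2, a chromatin protein of proliferating cells, had 0 to 116 UMIs per mitotic cell with a median of 7, and 784 CPM against 176, a ratio of 4.44 (4.15 to 4.75). Stmn1, which destabilises microtubules, had 319 CPM against 68.9. H2afz, a histone variant found in all cells, had 1433 CPM against 905, a ratio of 1.58. All 6 tubulins had ratios between 1.93 (Tuba1c) and 7.08 (Tubb6), and tubulin genes share sequence, so the split among them is uncertain. Ezh2, the enzyme of Polycomb repressive complex 2, had 53.6 CPM against 24.2, a ratio of 2.22 (1.73 to 2.82), whereas its partners Suz12 and Eed had 1.32 and 0.929.

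G1 regulators differed among themselves. Of 15 genes, 4 had a ratio of at least 2 (5.62% of all genes did), and the median ratio was 1.33, against 1.09 for all genes. The 3 D-type cyclins, which start G1 progression, had 1095 CPM together against 1076, a ratio of 1.02 (0.968 to 1.07), and Ccnd1 had 436 CPM against 432. Cdkn2a, whose locus encodes the inhibitor p16 and the p53 activator p19Arf, had 610 CPM against 490, a ratio of 1.25 (1.16 to 1.33). It had a UMI in 94.8% of mitotic cells and 90.9% of baseline cells, or 85.7% and 71.6% at 3000 UMIs per cell. The counts cover the whole locus and do not separate its transcripts. Cdkn1a, the p53 target that encodes p21, had 27.2 CPM against 19.5, a ratio of 1.39 (0.982 to 1.93), and 1 mitotic cell held 17 of its 41 UMIs there. On the list of p53 and its targets, of 13 genes with at least 50 UMIs, none had a ratio of at least 2 or at most 0.5. Over all genes these shares were 5.62% and 2.42%. The median of the list was 0.917. The 4 G1 genes with a ratio of at least 2 were Cdkn3, a CDK phosphatase, at 7.30, Cdk2 at 3.2, and the inhibitors Cdkn2d and Cdkn2c at 2.51 and 2.16.

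Mitotic cells were epithelial by their markers. Epcam, an adhesion molecule of epithelia, had a UMI in 98.3% of them and 915 CPM against 664, a ratio of 1.38 (1.30 to 1.46). Krt8 had 969 CPM against 1018, and its partner Krt18 had 1444 against 1830, a ratio of 0.789 (0.755 to 0.824). Cdh1, which encodes E-cadherin, had 109 CPM (93.2 to 127) against 98.0, a ratio of 1.12 (0.945 to 1.31). None of 16 junction genes had a ratio of at least 2 or at most 0.5 (5.62% and 2.42% of all genes did). Their summed ratio was 0.975 (0.938 to 1.01). Markers of other cell types were mostly not detected. Of 7 immune markers, Ptprc, Cd3e and Cd79a had no UMI in mitotic cells. The 7 had a UMI in 33 members (28.4%) and summed to 31.8 CPM against 36.2 in other cells, most of it Cd14 and Cd68. The mesenchymal list had a UMI in 9 members, and 8 of its 9 UMIs were of Vim, an intermediate filament gene, with 5.30 CPM against 2.69, a ratio of 1.97 (0.807 to 4.19). No UMI was found in mitotic cells for 3 of 4 endothelial, 6 of 8 mesenchymal, 6 of 6 enteroendocrine and 4 of 4 erythroid markers. Of these, 2 endothelial, 4 mesenchymal, 3 enteroendocrine and 4 erythroid markers had no UMI in any kept cell. A count of 0 in 116 cells allows a share of up to 2.59% (3 cells) of cells with a UMI, which does not limit the share of cells that express the gene.

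Ratios of gastric lineage genes depended on the comparison group. Of 9 such genes with at least 50 UMIs, 5 had a ratio of at most 0.5 (2.42% of all genes did): Tff1, Gkn2, Gkn1, Tff2 and Muc5ac, which mark pit and mucous cells. Tff1, a secreted peptide of pit cells, had 0 to 4 UMIs per mitotic cell with a median of 1, and 62.3 CPM (50.3 to 76.2) against 327, a ratio of 0.191 (0.154 to 0.234). In baseline cells it had 82.0 CPM, which gives a ratio of 0.760 (0.607 to 0.941). Tff1 had a UMI in 51.7% of mitotic cells and 54.7% of baseline cells. Gkn1, a secreted protein of pit cells, had a ratio of 0.347 (0.246 to 0.477) to all other cells and 1.04 (0.725 to 1.47) to baseline cells. The low ratios of these 2 genes to all other cells thus rested on cells led by the other sets. In the 40 cells with a mitotic z at the threshold but another set higher, Tff1 had 2156 CPM and Gkn1 had 286 CPM. Aqp5, a water channel of antral gland cells, had 1044 CPM against 1152, a ratio of 0.907 (0.861 to 0.955). The highest ratio of the list was that of Pgc, which encodes the chief cell enzyme progastricsin, at 1.79 (0.782 to 3.62) from 9 UMIs in mitotic cells.

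Of 10 genes of the fetal-like state, which marks regenerating epithelium, 0 had a ratio of at least 2 or at most 0.5 (5.62% and 2.42% of all genes did). The median ratio was 0.868. Ly6a, the Sca-1 antigen, had 2284 CPM against 3205 in all other cells and 3243 in baseline cells, ratios of 0.713 (0.688 to 0.738) and 0.704 (0.680 to 0.730). Ly6d, a related surface protein, had 2011 CPM against 3192 in all other cells and 3094 in baseline cells. The 10 genes of that list had a summed ratio of 0.766 (0.752 to 0.780) to all other cells, and mitotic cells were above the other cells' median in 20.7% of cases. Spp1, osteopontin, had the highest ratio of the list, 1.97 (1.72 to 2.24), and Ly6d the lowest, 0.630 (0.607 to 0.654). Krt20, a keratin of mature surface cells, had 3 UMIs in mitotic cells, 1.99 CPM against 9.78, a ratio of 0.203 with an interval of 0.0415 to 0.603.

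Of the stem and Wnt list, 2 of 12 genes with at least 50 UMIs had a ratio of at least 2 (5.62% of all genes did). Cd44, a Wnt target and hyaluronan receptor, had 60.9 CPM against 29.6, a ratio of 2.06 (1.63 to 2.58), and 29.1 CPM in baseline cells. Tnfrsf19, also called Troy, had 11.3 CPM against 4.94, a ratio of 2.28 (1.27 to 3.85). Sox9, a factor of progenitors, had 106 CPM against 79.7, a ratio of 1.33 (1.12 to 1.57), and Lgr4 and Myc had 1.10 and 1.04. Gata6, a stomach and gut factor, had 12 UMIs in mitotic cells, 7.95 CPM against 2.90, a ratio of 2.74 (1.33 to 5.18). It was the 1 gene of 12 stomach transcription factors with at least 50 UMIs past a ratio of 2. In so short a list that count is near the share of all genes, 5.62%. The immediate early list, which responds to dissociation, had 0 of 14 genes past a ratio of 2 in either direction, a median ratio of 0.927, and Fos at 2223 CPM against 2347. Of 15 apoptosis genes with at least 50 UMIs, 0 passed it, with a median of 1.03. Over all genes 5.62% had a ratio of at least 2 and 2.42% one of at most 0.5. Counts of 0 in lists this short therefore say little about the lists.

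Other programmes overlapped with the mitotic one. Of the 116 members, 53 also had a z of at least 1.5 on another set and 63 on none. Replication licensing was the most frequent, in 38 members (32.8%, 24.3% to 42.1%) against 146 of the other cells (8.22%), and it was the next highest set in 64 members. The Cyba set reached 1.5 in 12 members (10.3%) against 6.31% of other cells, and the metallothionein set in 10 (8.62%) against 7.83%. The Scgb3a1 set reached it in 5 members (4.31%) against 11.4%, the Ndrg1 set in 3 (2.59%) against 10.4%, and the Psca set in 2 (1.72%) against 9.57%. Because a member must have its highest z on the mitotic set, a cell with a still higher z on one of these sets was taken out, and the shares in members are cut by the rule. Medians over mitotic cells of the summed UMIs per 10000 were 3.46 for Scgb3a1 with Cyp2f2 (2.28 in other cells), 8.91 for Mt1 with Mt2 (10.3) and 0 for the chemokine, Psca, Ndrg1 and Cyba sets (0 in other cells). Summed over cells, the order of the first 2 sets was the other way round: Scgb3a1 with Cyp2f2 had 1277 CPM against 1854, a ratio of 0.689 (0.658 to 0.721), and Mt1 with Mt2 had 2102 CPM against 1989, a ratio of 1.06 (1.02 to 1.10). The rule used all of these sets.

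Mitotic cells were next set against each other by replication licensing, a division chosen after the values were seen. The 38 members with a licensing z of at least 1.5 had a median of 11854.5 UMIs and the 78 members below it had 10819. The division shares its score with the rule: a member with a high licensing z needs a mitotic z that is higher still, and the median mitotic z was 3.30 in the 38 cells and 2.65 in the 78. Higher levels of mitotic genes in the 38 cells are therefore in part built in, and higher levels of the other genes of S phase, which vary with licensing genes, follow from the division itself. The ratios describe the division and are no evidence of a difference between kinds of mitotic cells. The replication genes not used by the rule were at 2509 CPM in the first group and 1428 CPM in the second, a ratio of 1.76 (1.63 to 1.90). Recombination genes had a ratio of 2.02 (1.66 to 2.45), and mitotic kinases and spindle genes had 1.31 and 1.34. Single genes spread on both sides of these. Rrm2 had 20 UMIs in the 38 cells and 8 in the 78 cells, a ratio of 4.54 (1.92 to 11.9). Hmgb2 had 1197 against 556 CPM, a ratio of 2.16 (1.92 to 2.42), and Hist1h2ap had 464 against 249 CPM.

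Ratios of mitotic genes in the same division carry the higher mitotic z of the 38 cells too, and whether they differ from gene to gene was not tested. Aurka had 97.0 CPM (72.4 to 127) in members with high licensing and 48.3 CPM (35.5 to 64.2) in those with low licensing, a ratio of 2.01 (1.33 to 3.05). Nek2, a centrosome kinase, had a ratio of 2.56 (1.32 to 5.08), and Ccna2, Birc5 (the passenger protein survivin) and Tpx2 had 1.91, 1.86 and 1.79. Nusap1 and Cks2, a small CDK-binding protein, had 1.32 and 1.26. The rule's own genes Mki67, Top2a, Aspm and Hmmr had 1.53, 1.29, 1.15 and 1.15, values that the rule itself affects. Ccnb1, Ccnb2, Cdc20, Plk1, Prc1, Ube2c and Cenpa had ratios between 0.884 and 1.14. The intervals of Ccnb1, Ccnb2, Cdc20 and Plk1 reach 1.63, 1.36, 1.62 and 1.65 and so overlap that of Aurka. Those of Prc1, Ube2c and Cenpa end at 1.19, 1.11 and 1.08, below Aurka's lower limit of 1.33. Ube2c had 379 CPM against 404, and Ccnb2 had 127 against 126. Aurka had 1.18 CPM, from 1 UMI, in licensing-high cells outside the mitotic group and 97.0 CPM in mitotic cells with high licensing.

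**Figure D5:**
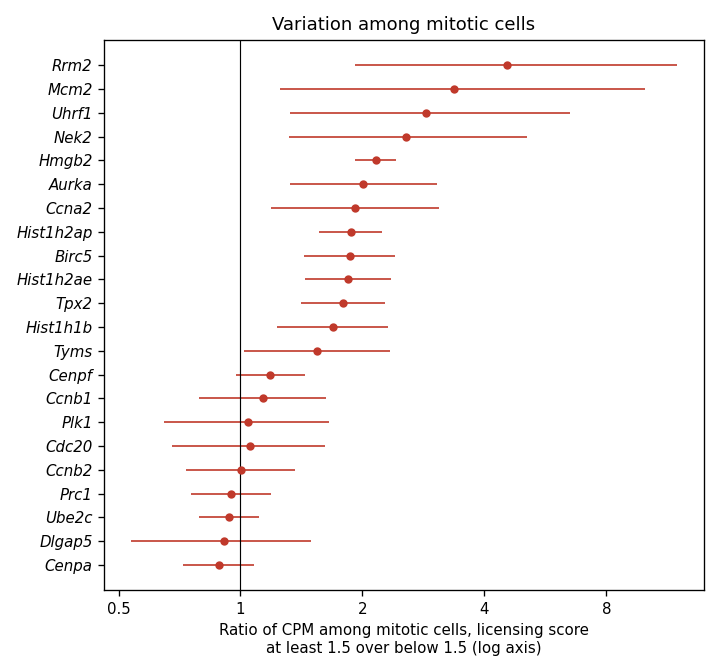
Ratio of CPM (x axis, log scale) of 22 genes between the 38 mitotic cells with a licensing z of at least 1.5 and the 78 mitotic cells below it, with bars for 95% counting intervals and a line at 1. Rrm2 is highest at 4.54, Nek2, Hmgb2 and Aurka lie at or above 2, and Ccnb2, Prc1, Ube2c and Cenpa lie near 1.

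Transcripts of S phase and of mitosis were often found in the same cell. Of 116 members, 91 (78.4%) had a UMI of Hist1h1b, Hist1h2ae or Hist1h2ap and 96 (82.8%) had a UMI of Ccnb1 or Ccnb2. In baseline cells these shares were 27.4% for the histones and 6.55% for cyclin B. Both were found in 79 members (68.1%), against 2.15% of baseline cells. The shares were not taken at equal depth, and whether the 2 kinds were found together beyond their single shares was not tested. Histones alone were found in 12 members, cyclin B alone in 17 and neither in 8. Across the 116 cells the summed levels per 10000 UMIs of kinases and of kinetochore genes had a Spearman rho of 0.76, kinases and spindle genes 0.72, kinases and replication genes 0.59, and kinases and the 12 listed histones 0.35. These cells share 1 library and the levels share each cell's depth as a divisor, so the values describe these cells.

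Among genes with enough UMIs to be ranked, the 10 with the largest variance over the mean between mitotic cells were not cycle genes. Sparser genes were not ranked, abundant genes can have a larger value, and the members were chosen by cycle genes. The ranking therefore does not compare cycle genes with other genes. In 112 members thinned to 3000 UMIs, the variance over the mean (the Fano factor, near 1 for counting noise) had a median of 1.12 over 1836 genes with a mean of at least 0.2 UMIs. The 10 highest were Malat1, Scgb3a1, S100a6, Mt1, mt-Co1, Fth1, Hp, Clu, Gm42418 and Hspb1. Malat1, a nuclear noncoding RNA, ran from 0 to 446 UMIs with a median of 35 and a Fano factor of 97.0. Scgb3a1, a secretoglobin and one of the sets' genes, ran from 0 to 82 with a median of 0, with a UMI in 51 of 112 cells. Mt1, a metal-binding protein, ran from 0 to 53 with a median of 2.

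By multiplexing tag, 72 members had CMO301 and 44 had CMO302 as their highest tag. The labels do not tie tags to cultures. The mitotic share was 6.78% (5.34% to 8.46%) of 1062 cells with CMO301 and 5.30% (3.88% to 7.05%) of 830 cells with CMO302, and the intervals overlap. Ratios within each tag were near the pooled ones, 7.31 and 6.90 for mitotic kinases and cyclins and 3.02 and 2.91 for replication genes. A UMI of a Y-linked gene was found in 5 members (4.31%, 1.41% to 9.77%) and in 2.53% (1.85% to 3.38%) of all other kept cells. At 3000 UMIs per cell these shares were 0.893% and 1.16%. Without thinning, it was found in 0.644% of baseline cells and in 13 of the 40 cells with a mitotic z at the threshold but another set higher (32.5%), and Xist had a UMI in 83.6% of members and 52.5% of those 40. The part of these sex-linked differences in the results was not tested.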

How the data were processed

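RNA of single cells from 1 wild-type organoid library was measured with a 10x Genomics 3' v2 kit, per the labels' protocols. The matrix also holds multiplexing tags, and whether the stated kit version is right was not resolved. The authors deposited unnormalized UMI counts for 32285 genes and 12 multiplexing tags in 1991 distinct barcodes, with 20236916 gene UMIs. Reads were mapped to GRCm38/mm10 with Cell Ranger 6.1.2, per the submitters' processing notes, and the annotation is not given in the sources used here. Tag counts (21.4% of UMIs) were kept out of totals. The cell filter removed 99 barcodes.

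The rule and CPM were computed from the deposited counts (numpy 2.4.6, scipy 1.17.1, pandas 2.3.3) and tested on simulated data. CPM carry exact Poisson intervals, ratios carry exact conditional binomial intervals and shares carry Clopper-Pearson intervals. Limits printed for a count of 0 are instead those of 3 counts and are not Clopper-Pearson limits. No p-value was computed, since cells from the same library do not replicate each other. Scrublet (scanpy 1.11.5) expected 1.59% doublets and set a score threshold of 0.134, and called cells were kept, since the rule removes none. A caller rate of 0.634% is low, so doublets may remain. For thinning, UMIs were drawn without replacement.

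The members and gene lists were chosen with earlier results of these data known. Of 442 listed genes, 441 were in the matrix. Named genes are those of the lists, the 25 genes with the highest ratio (a UMI in at least 10% of members) and the 15 with the lowest, among genes with at least 50 UMIs, and the 10 with the highest Fano factor. Irf7, Ago3 and Hilpda fall outside this rule and were chosen after their values were seen. Promoter windows from RefSeq were found by symbol for 329 listed genes.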

Additional observations from a re-analysis of the deposited data

How the results depend on the processing

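No paired analysis was possible because all cells came from 1 library, and no replicate could be left out. Over 15 alternatives and 5 results, 47 values stayed within the interval or within 1.5 times the count, and 20 moved, none in direction. The count of 116 cells ran from 97 (z of at least 2.0) to 156 (another set allowed to be higher), and the 2 tags alone held 72 and 44. After thinning to 3000 UMIs the rule took 150 cells, of which 81 were among the 112 members deep enough, and the 69 cells gained had a median z of 0.923 in the full data, so membership of single cells changed with depth, and not only near the threshold. The ratio of mitotic kinases and cyclins was 6.75 at a z of 1.0, 7.73 at 2.0, 6.62 without Top2a in the rule, 8.46 with another set allowed to be higher, 5.92 after thinning, 7.71 without the Cyba and Gsta cells and 8.25 as a mean over cells. For replication genes the same settings gave 2.81, 3.22, 2.59, 3.47, 2.33, 3.15 and 3.30. Genes with a ratio of at least 2 numbered 240 after thinning and 175 with a minimum of 200 UMIs, where fewer genes were tested. The ratio of median UMIs was 1.17 without Top2a and 1.15 after thinning, and the cause was not tested. Foxm1 and Mybl2 had under 50 UMIs, too few for the counts of genes.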

Other observations

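The 15 genes with the lowest ratio all had 0 UMIs in mitotic cells, where 3 counts over the group would be 1.99 CPM. Of these, 7 (Gm21818, Gm20767, Gm21762, AF067061, AC125149.3, Tcstv1 and Gm44693) had 1345 of their 1384 UMIs in the same baseline cell, which had 7374 UMIs and 775 genes. Gm21818 was at least 18.9-fold lower in mitotic cells, and 98.4% of its UMIs came from that cell. The low ratios of these 7 genes therefore describe that cell. Ccl5, a chemokine, had 92.2% of its UMIs in 1 cell. Gsta2, a glutathione transferase gene of the Cyba set, and Gm3776 share sequence, so the assignment of their reads is uncertain. Gsta2 was at least 1.73-fold lower, but it is a gene of the rule, and cells with a higher z on its set were kept out of the members.

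Among genes with a UMI in at least 10% of the other cells, a condition added after the values were seen, the lowest ratios were those of Tff1 and Irf7. Irf7, a factor of the interferon response, had 4 UMIs in mitotic cells, 2.65 CPM against 13.0, a ratio of 0.204 (0.0551 to 0.528). To baseline cells the ratio of Irf7 was 0.209 (0.0561 to 0.548), with a UMI in 3.45% of mitotic and 10.2% of baseline cells. At 3000 UMIs per cell the shares were 2.68% and 2.42%. With so few UMIs the thinned shares do not settle whether a difference remains at equal depth. Ago3, an Argonaute protein of small RNA silencing, also had 4 UMIs in mitotic cells, 2.65 CPM against 10.9, a ratio of 0.243 (0.0655 to 0.631). At 3000 UMIs per cell Ago3 had a UMI in 1.79% of mitotic and 2.75% of baseline cells. Hilpda, a lipid droplet protein induced by hypoxia, had 17.9 CPM (11.8 to 26.0) in mitotic cells, 51.8 in all other cells, 60.3 in replication-licensing high cells and 45.0 in baseline cells. Its ratio to baseline cells was 0.397 (0.259 to 0.586). Cxcl5, a chemokine of 1 of the sets, had a ratio of 0.387 to all other cells but 2.50 (1.72 to 3.56) to baseline cells. The rule used this gene to define the members and the baseline cells, so both ratios are affected by that choice.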
